A study of Danio rerio with 28 samples.

Results

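The chemokines and chemokine receptors of the zebrafish heart were followed after injury in fish with and without a mutation of *thraa*, which encodes thyroid hormone receptor alpha a. The genes were chosen by symbol: all whose name starts with ccl, cxcl, xcl, ccr, cxcr, xcr or ackr followed by a digit, in any case. The rule leaves out 3 identifiers, which are not reported here. It took 77 of the 32520 genes in the files: 34 CC ligands, 17 CXC ligands, 13 CC receptors, 6 CXC receptors, 5 atypical receptors and 2 XC receptors. Where several genes share a symbol (ACKR3, ACKR4, CCR6, CCR9, XCR1 and CXCR1, with cxcr1 beside it), the Ensembl identifier is given with it.

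RNA sequencing covered 28 libraries in 14 groups of 2. The time course holds *thraa*+/- mutants and wild types (WT), uninjured and at 8 h (8 hpi) and 1, 3, 7 and 15 days (dpi) after about 20% of the ventricular apex was cut away. The second experiment holds uninjured hearts of *thraa*-/- mutants and WT. Each library pooled tissue of at least 5 fish aged 4 to 6 months. In the time course this was the injured zone or, without injury, the apex of the ventricle. The mutant allele, made with CRISPR/Cas9 and kept as 1 line, inserts 8 bases that shift the reading frame in the ligand-binding domain. In the time course the labels say knockout only, and heterozygosity is taken from the study's methods. In the second experiment the mutants are labelled homozygous, and the titles of all 4 libraries name the entire heart while the protocol describes ventricles.

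Chemokines are small secreted proteins that guide migrating cells. The spacing of their first cysteines divides them into CC, CXC and XC types, and they act through receptors coupled to G proteins on the surface of leukocytes and other cells. Atypical receptors bind chemokines without the usual signal and take them up, which clears them from the tissue. In an injured heart, neutrophils arrive first and macrophages follow, and CXC ligands of the Cxcl8 and Cxcl18 types attract neutrophils in zebrafish. The zebrafish holds many lineage-specific copies of CC ligands (the ccl34, ccl35, ccl38 and ccl39 groups), and no role is given here for a gene whose role is not well established.

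Total counts on genes ranged between 13692204 and 18775025 per time-course library and between 13656671 and 16532401 per library of whole hearts, and the members took 0.0154% to 0.0898% and 0.018% to 0.0251% of them. Levels are given per library as CPM, the count of a gene scaled to the normalised size of its library. A group whose libraries held 3 counts or fewer in all (3 counts were 0.153 to 0.312 CPM in the time course) is called at the limit of detection, with a ratio of counts and its exact 95% interval, which covers counting error only, or a lower bound in place of a fitted fold. Of the 77 members, 57 passed the filter on low counts in time-course libraries and 25 in those of whole hearts. The XC receptors were not among them, and 3 CC ligands (ccl39a.10, ccl33.2 and ccl39.4) were listed at 0 in all libraries. The 8 hpi libraries of *thraa*+/- hearts differed most from each other, with 23.9 times the variation that counting alone gives, against 1.87 to 8.68 times in the other time-course groups. For whole hearts it was 8.17 times in *thraa*-/- and 15.5 times in WT. *thraa* itself was at 3.15 to 6.54 CPM in *thraa*+/- libraries and at 2.56 to 5.51 CPM in WT libraries, and an insertion of this kind need not lower the count. Cardiomyocyte markers summed to 60101 to 61152 CPM in uninjured *thraa*+/- apex and to 72755 to 75567 CPM in uninjured WT apex.

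Levels of different genes can be compared only per length. On the length-scaled TPM scale of the deposited tables, group means reached 543 for ccl34a.4, 184 for cxcl18b, 102 for ccl25b, 91.1 for ccl34a.3 and 86.9 for ccl34b.8. The highest receptors were ccr12b.2 at 40.5 TPM, ACKR3 (ENSDARG00000058179) at 40.2 TPM and CCR9 (ENSDARG00000055186) at 36.6 TPM. Of the 77 members, 49 reached 1 CPM and 22 reached 10 CPM in at least 1 time-course group.

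**Figure D1:**
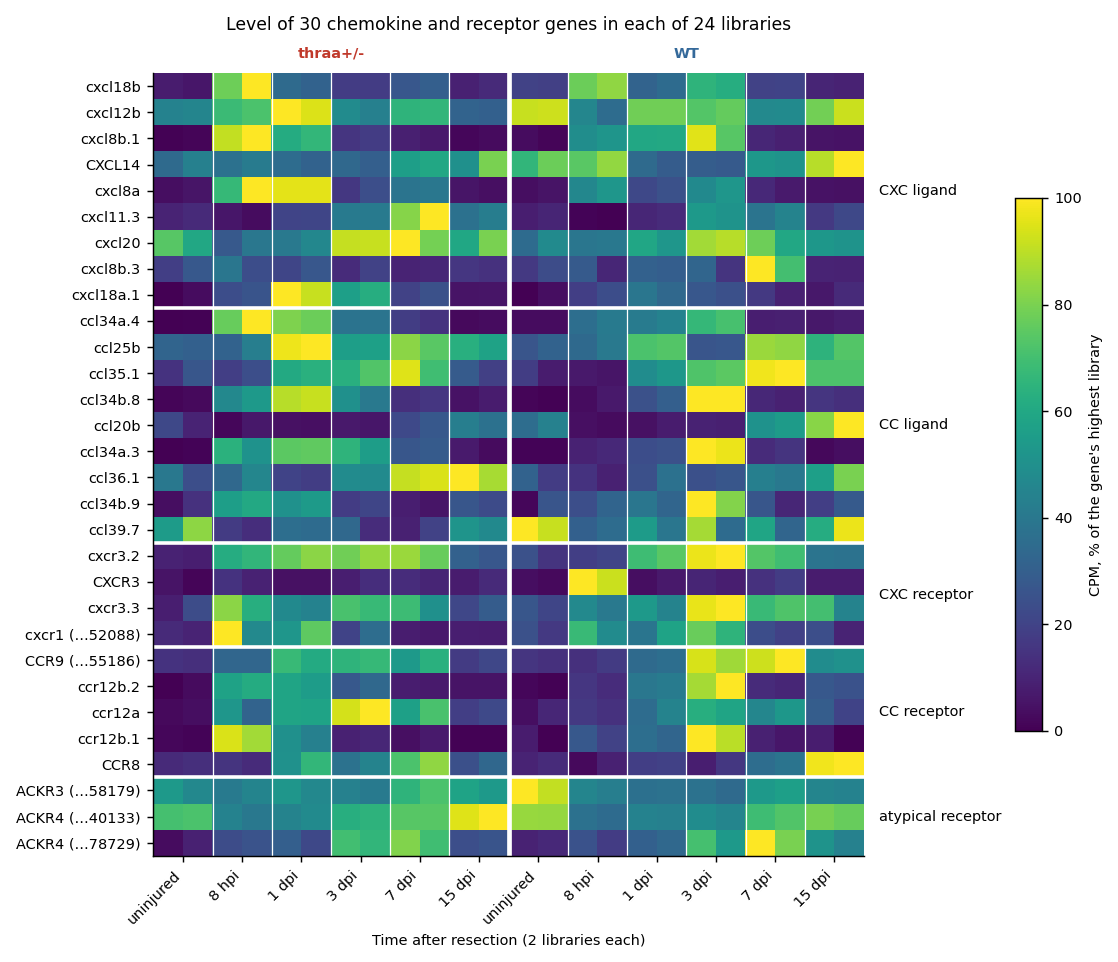
Levels of the 30 members with the highest group mean (down the page, by class) in each of the 24 time-course libraries (*thraa*+/- left, WT right, in order of time). Colour gives CPM as a percentage of the gene's highest library, and a block of ligands and receptors is brightest at 8 hpi and 1 dpi in *thraa*+/- and at 3 dpi in WT.

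The first question was how the members responded to resection in each genotype. Most that changed were higher after injury, in both genotypes. A member was called when the quasi-likelihood test of edgeR gave an adjusted p under 0.05 and a log2 fold change of at least 1 in size. Of the 57 members tested, 38 were called higher at 1 or more times in *thraa*+/- and 40 in WT, and 9 in *thraa*+/- and 15 in WT were called lower. Of all genes tested, 33.4% were called higher at 1 or more times in *thraa*+/- and 38.8% in WT, and 25.3% and 26.2% were called lower. Of the members, 3 were called at no time in either genotype: cxcl32b.1, CCR6 (ENSDARG00000087474) and ccl39.5, whose levels stayed at or below 1.34 CPM (27.5% of all genes were called at no time).

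In *thraa*+/- hearts, 24 members were higher and 6 lower at 8 hpi than without injury, where 30.5% of all genes tested were called. By 1 dpi 27 were higher and 5 lower (30.7% of all genes called). The 3 dpi hearts had 27 higher and 3 lower (31.9%), the 7 dpi hearts 29 higher and 2 lower (36.5%) and the 15 dpi hearts 13 higher and 0 lower (11.9%, with 7.88% higher and 4.00% lower). The median log2 fold change of the members, less that of all genes, was 0.59, 1.57, 1.40, 1.84 and 0.82 at these times. In WT hearts, 16 members were higher and 12 lower at 8 hpi (29.0% of all genes called). The 1 dpi hearts had 19 higher and 6 lower (25.6%), the 3 dpi hearts 28 higher and 4 lower (35.2%), the 7 dpi hearts 30 higher and 1 lower (37.8%) and the 15 dpi hearts 22 higher and 2 lower (18.7%). Here the difference of medians was -0.01, 0.70, 1.25, 1.26 and 1.11. Of the calls in *thraa*+/- hearts, 22 of 30, 27 of 32, 20 of 30, 26 of 31 and 5 of 13 were made with each library left out in turn, and in WT hearts 23 of 28, 19 of 25, 26 of 32, 23 of 31 and 14 of 24. With libraries scaled by total counts, 20 members were higher and 6 lower in WT at 8 hpi, and 27 and 2 at 1 dpi.

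**Figure D2:**
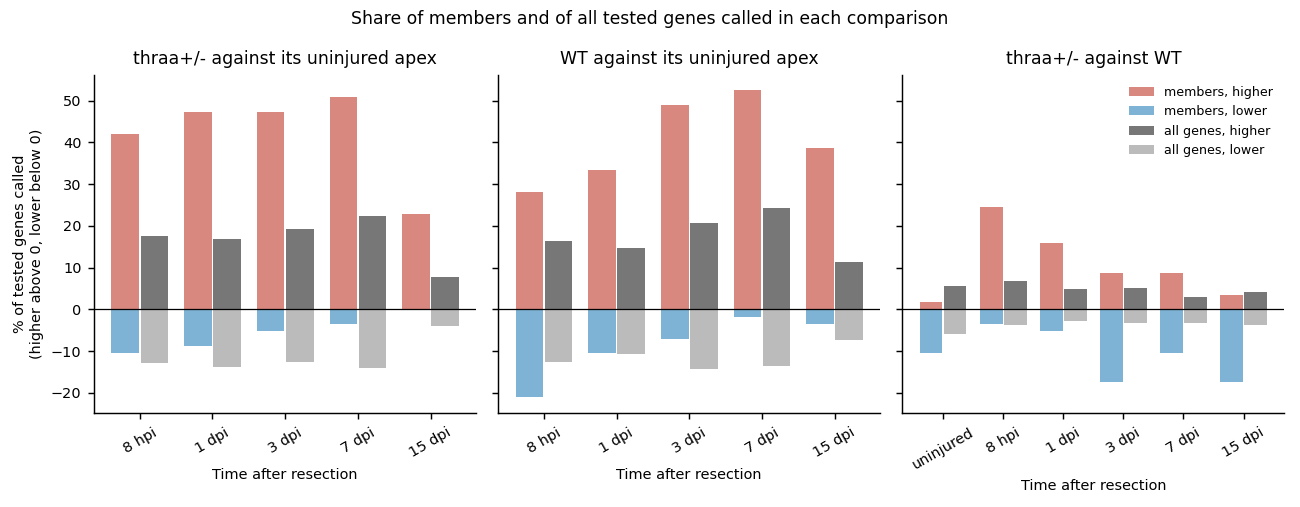
Percentage of the 57 members tested (red higher, blue lower) and of all 17837 genes tested (dark grey higher, light grey lower) called at each time, with lower calls drawn below 0, in 3 panels: *thraa*+/- against its uninjured apex, WT against its uninjured apex, and *thraa*+/- against WT. In the last panel 24.6% of the members were higher at 8 hpi, against 6.88% of all genes, and 17.5% were lower at 15 dpi, against 3.74%.

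The CXC ligand with the highest TPM was cxcl18b, which attracts neutrophils through Cxcr2 in zebrafish. In *thraa*+/- hearts it had 15.6 and 12.8 CPM uninjured, 164 and 209.7 (8 hpi), 72.3 and 66.2 (1 dpi), 37.0 and 37.0 (3 dpi), 57.3 and 63.8 (7 dpi) and 19.3 and 24.7 (15 dpi). In WT hearts it had 41.6 and 39.7 CPM uninjured, 162 and 175 (8 hpi), 66.7 and 73.3 (1 dpi), 136 and 131 (3 dpi), 41.4 and 42.3 (7 dpi) and 21.5 and 20.5 (15 dpi). WT hearts thus had a second high level at 3 dpi, the time of the lowest level between 8 hpi and 7 dpi in *thraa*+/- hearts.

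Of the Cxcl8 ligands, homologues of interleukin-8 that bind Cxcr1 and Cxcr2, cxcl8b.1 and cxcl8a were below 1 CPM in each uninjured library. cxcl8b.1 had 0.102 and 0.296 CPM in uninjured *thraa*+/- hearts, then 20.1 and 22.2 (8 hpi), 13.7 and 14.7 (1 dpi), 3.45 and 3.99 (3 dpi), 1.94 and 1.55 (7 dpi) and 0.354 and 0.631 (15 dpi). In WT hearts it had 0.700 and 0.312 CPM uninjured, 10.9 and 11.6 (8 hpi), 13.3 and 13.4 (1 dpi), 21.2 and 16.5 (3 dpi), 2.42 and 1.92 (7 dpi) and 1.19 and 1.12 (15 dpi). The mutant libraries were thus highest at 8 hpi and fell off after 1 dpi, whereas the WT libraries stayed above 10 CPM through 3 dpi. Against uninjured apex, its counts at 8 hpi were 105 times as high in *thraa*+/- hearts (95% interval 41.0 to 388), and the log2 fold change in WT was 4.44 ± 0.33 (SE, edgeR adjusted p = 1.67e-15).

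cxcl8a had 10.6 and 15.9 CPM at 8 hpi, 15.2 and 15.3 (1 dpi), 2.57 and 3.83 (3 dpi) and 6.13 and 6.27 (7 dpi) in *thraa*+/- hearts. The WT libraries held 7.37 and 8.35, 3.46 and 3.94, 7.52 and 8.36, and 1.84 and 1.17 CPM at the same times. Both genotypes had 0.60 to 0.889 CPM without injury, and the order of the genotypes turned between 1 and 3 dpi and again by 7 dpi. The third gene of the group, cxcl8b.3, had 1.32 and 1.98 CPM in uninjured *thraa*+/- hearts and 1.2 and 1.66 CPM in uninjured WT hearts. It was at 0.715 to 2.81 CPM in *thraa*+/- libraries, where it was called lower at 7 dpi alone. That call was lost with scaling by total counts (log2 fold change -0.25). In WT it was called higher at 7 dpi alone, with 7.15 and 5.01 CPM.

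The products of cxcl11 genes attract macrophages through Cxcr3.2 in zebrafish. cxcl11.3 had 5.82 and 5.78 CPM (3 dpi), 11.5 and 14.1 CPM (7 dpi) and 5.25 and 5.99 CPM (15 dpi) in *thraa*+/- hearts, against 7.57 and 7.24, 5.42 and 6.30, and 2.32 and 3.05 CPM in WT hearts. Uninjured hearts had 1.42 and 1.68 CPM in *thraa*+/- and 1.2 and 1.46 CPM in WT. At 8 hpi the gene was lower than without injury in both genotypes, at 0.870 and 0.442 CPM in *thraa*+/- and at 0.139 and 0 CPM in WT. The call in *thraa*+/- was lost with scaling by total counts (log2 fold change -0.73, adjusted p = 0.149). The other 5 cxcl11 genes tested (cxcl11.1, cxcl11.4, cxcl11.5, cxcl11.6 and cxcl11.7) stayed at or below 3.10 CPM, and each was called higher at 7 dpi in both genotypes. They held 5 counts or fewer in each uninjured library. The 7 dpi calls of cxcl11.1 and cxcl11.7 in *thraa*+/- and of cxcl11.1 and cxcl11.4 in WT were not made with each library left out in turn. Counts of cxcl11.6 and cxcl11.7 were not whole numbers in 45.8% of the time-course libraries, so their calls may rest on shared reads. cxcl11.1 was highest at 1 dpi in *thraa*+/- hearts, with 3.10 and 2.63 CPM, and at 3 dpi in WT hearts, with 1.92 and 2.34 CPM.

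cxcl12b, one of the zebrafish Cxcl12 ligands that guide migrating cells and growing vessels, was among the highest members without injury, with 45.4 and 46.8 CPM in *thraa*+/- hearts and 94.2 and 94.9 CPM in WT hearts. After resection it had 69.9 and 73.4 CPM at 8 hpi, 103 and 97.1 (1 dpi), 49.5 and 44.7 (3 dpi), 66.8 and 67.5 (7 dpi) and 32.7 and 31.3 (15 dpi) in *thraa*+/- hearts. In WT hearts it had 47.1 and 36.4, 80.6 and 80.4, 75.1 and 78.3, 48.2 and 49.0, and 80.6 and 94.6 CPM. It was called higher at 1 dpi in *thraa*+/- (log2 fold change 1.12 ± 0.09, SE, edgeR adjusted p = 1.68e-14) and lower at 8 hpi in WT (-1.18 ± 0.09, adjusted p = 5.14e-15). The WT call was lost with scaling by total counts (log2 fold change -0.66). CXCL14, made by epithelia in mammals, was at 11 and 13.0 CPM uninjured and at 4.74 to 5.81 CPM at 1 and 3 dpi in WT, and was not called at any time in *thraa*+/-. Its WT calls at 1 and 3 dpi were lost with scaling by total counts (log2 fold change -0.58 and -0.50).

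**Figure D3:**
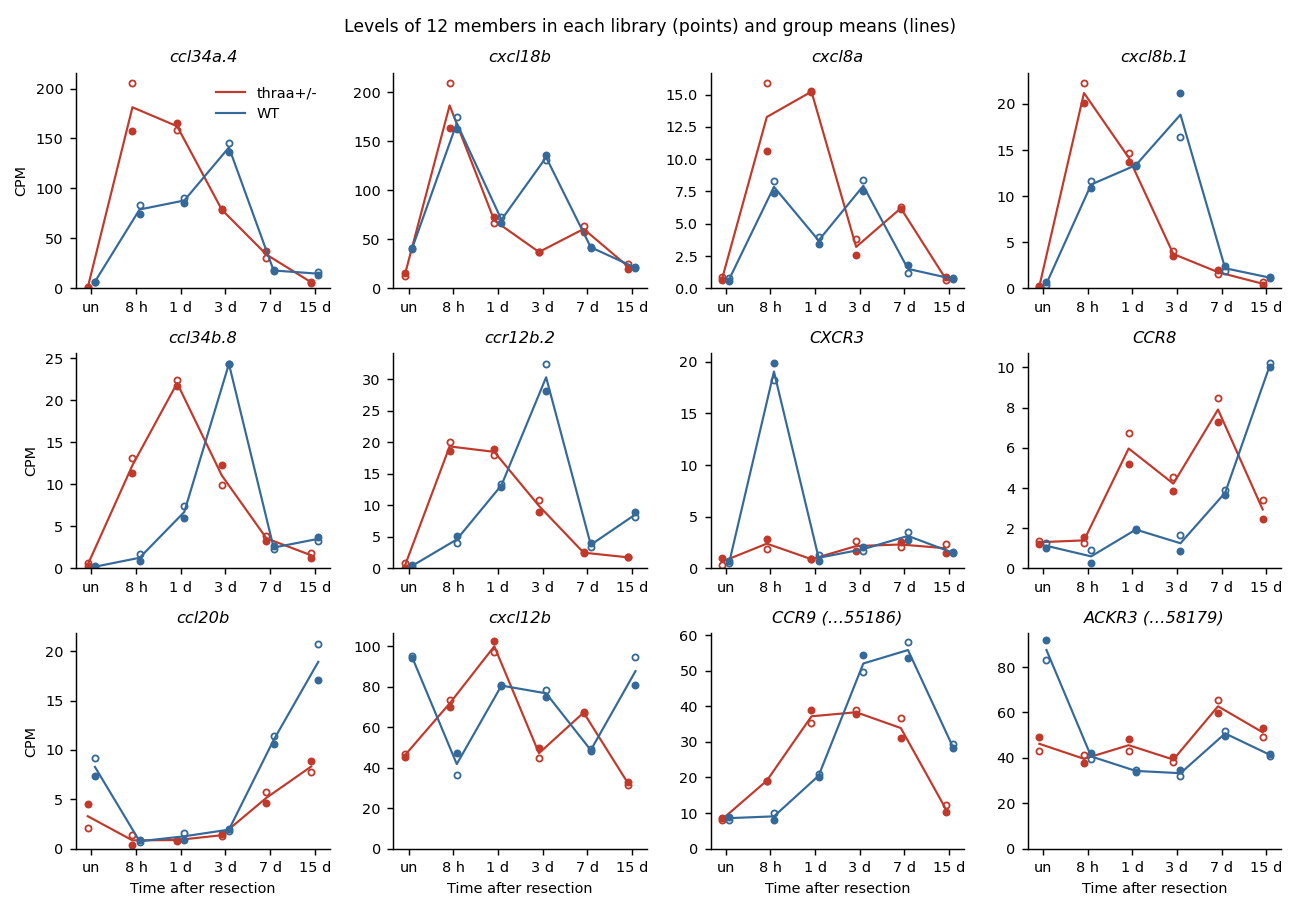
CPM (vertical axis, linear, one scale per gene) by time for 12 members, with *thraa*+/- and WT in separate colours. Filled and open points are replicates 1 and 2 and lines join the group means, and ccl34a.4, ccl34b.8 and ccr12b.2 are highest at 8 hpi or 1 dpi in *thraa*+/- and at 3 dpi in WT.

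The CC ligand with the highest TPM was ccl34a.4. It had 0.305 and 1.48 CPM in uninjured *thraa*+/- hearts, 157 and 205 (8 hpi), 166 and 159 (1 dpi), 78.5 and 78.9 (3 dpi), 37.3 and 30.2 (7 dpi) and 5.54 and 6.54 (15 dpi). In WT hearts it had 6.70 and 6.45 CPM uninjured, 74.0 and 83.8 (8 hpi), 85.3 and 90.6 (1 dpi), 136 and 146 (3 dpi), 17.4 and 18.3 (7 dpi) and 13.0 and 16.2 (15 dpi). It was higher than without injury at all 5 times in both genotypes, with log2 fold changes at 8 hpi of 7.64 ± 0.24 in *thraa*+/- (SE, edgeR adjusted p = 4.74e-16) and 3.58 ± 0.18 in WT (adjusted p = 1.7e-12). Its WT call at 15 dpi was not made with each library left out in turn.

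Its relatives ccl34b.8 and ccl34a.3 were highest at 1 dpi in *thraa*+/- and at 3 dpi in WT. ccl34b.8 had 11.4 and 13.2 CPM at 8 hpi, 21.7 and 22.4 at 1 dpi and 12.3 and 9.87 at 3 dpi in *thraa*+/- hearts, against 0.835 and 1.70, 6.01 and 7.42, and 24.3 and 24.4 CPM in WT hearts. ccl34a.3 had 7.36 and 5.89 CPM, 8.6 and 8.69, and 7.47 and 6.41 CPM in *thraa*+/- hearts, against 1.11 and 1.34, 2.74 and 2.84, and 11.5 and 11.2 CPM in WT hearts at these times. Without injury, ccl34b.8 was at 0.104 to 0.593 CPM and ccl34a.3 at 0.104 CPM or less in all 4 libraries, so both came up almost entirely after resection. The counts of ccl34b.8 at 3 dpi in WT were 119 times those without injury (95% interval 46.5 to 439).

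ccl35.1 rose in WT to 26.4 and 26.9 CPM at 7 dpi and still had 19.5 and 19.4 CPM at 15 dpi, against 4.90 and 2.08 CPM uninjured. In *thraa*+/- hearts it had 25.6 and 18.7 CPM at 7 dpi, 7.72 and 5.12 CPM at 15 dpi and 3.97 and 7.21 CPM uninjured. ccl25b, whose mammalian homologue draws lymphocytes to thymus and gut, was highest at 1 dpi in *thraa*+/- hearts (59.9 and 61.5 CPM, against 19.7 and 18.8 uninjured) and at 7 dpi in WT hearts (52.3 and 51.2 CPM, against 16.3 and 19.4 uninjured). ccl20b, whose mammalian homologue attracts dendritic cells and lymphocytes through CCR6, was lower at 8 hpi, 1 dpi and 3 dpi in both genotypes and higher at 15 dpi in both. Its levels were 0.335 and 1.32 CPM at 8 hpi and 8.90 and 7.72 CPM at 15 dpi in *thraa*+/-, against 4.48 and 2.08 CPM uninjured. In WT they were 0.835 and 0.637 CPM at 8 hpi and 17.1 and 20.8 CPM at 15 dpi, against 7.4 and 9.15 CPM uninjured. With scaling by total counts the fall at 3 dpi in *thraa*+/- was not called (log2 fold change -0.50, adjusted p = 0.201). The *thraa*+/- calls of ccl20b at 3 and 15 dpi were not made with each library left out in turn.

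The receptor with the highest TPM was ccr12b.2. It had 0 and 0.889 CPM uninjured, 18.7 and 20.0 (8 hpi), 19.0 and 18 (1 dpi), 8.91 and 10.9 (3 dpi), 2.61 and 2.38 (7 dpi) and 1.77 and 1.73 (15 dpi) in *thraa*+/- hearts. In WT hearts it had 0.60 and 0.208 CPM uninjured, 5.08 and 4.10 (8 hpi), 12.9 and 13.5 (1 dpi), 28.1 and 32.5 (3 dpi), 4.05 and 3.44 (7 dpi) and 8.93 and 8.21 (15 dpi). It was higher than without injury at all 5 times in both genotypes, and the mutant libraries led until 1 dpi and trailed from 3 dpi on. Its *thraa*+/- call at 15 dpi was not made with each library left out in turn. Its neighbour ccr12b.1 was also highest at 8 hpi in *thraa*+/- and at 3 dpi in WT, with 11.2 and 10.3 CPM at 8 hpi and 1.08 and 1.26 at 3 dpi in *thraa*+/-, and 3.27 and 2.33 CPM at 8 hpi and 11.9 and 10.7 at 3 dpi in WT.

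cxcr3.2, the Cxcl11 receptor that zebrafish macrophages use, was at 28.8 and 30.6 CPM at 8 hpi in *thraa*+/- hearts, against 4.38 and 3.85 CPM uninjured. In WT hearts it was at 8.56 and 9.48 CPM at 8 hpi, against 11.5 and 6.97 CPM uninjured, and at 32.0 and 34.6 CPM at 1 dpi. It was thus called at 8 hpi in the mutant (log2 fold change 2.85 ± 0.16, SE, edgeR adjusted p = 4.56e-19), while WT libraries overlapped those without injury (-0.04 ± 0.16, adjusted p = 0.864). From 1 to 7 dpi it lay between 32.0 and 46.4 CPM in the libraries of both genotypes.

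CXCR3 (ENSDARG00000007358), a further gene of the CXCR3 type, had its own pattern. It was at 19.8 and 18.3 CPM in WT hearts at 8 hpi and at or below 3.5 CPM in every other library of the time course. In *thraa*+/- hearts at 8 hpi it was at 2.88 and 1.91 CPM. The WT rise had a log2 fold change of 4.94 ± 0.38 (SE, edgeR adjusted p = 1.08e-14) and that in *thraa*+/- of 1.87 ± 0.46 (adjusted p = 0.00067).

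CCR9 (ENSDARG00000055186), which in mammals reads CCL25, was at 39.0 and 35.4 CPM at 1 dpi, 37.7 and 39.0 (3 dpi), 31.1 and 36.7 (7 dpi) and 10.2 and 12.4 (15 dpi) in *thraa*+/- hearts. The WT values were 20.1 and 20.9, 54.5 and 49.7, 53.7 and 58.0, and 28.2 and 29.3 CPM. CCR8, found on regulatory T cells in mammals, had its highest level at 7 dpi in *thraa*+/- hearts (7.31 and 8.50 CPM) and at 15 dpi in WT hearts (10.0 and 10.2 CPM). ccr2, the monocyte receptor of mammals, had 3.15 and 2.63 CPM at 1 dpi and 3.81 and 4.04 CPM at 3 dpi in *thraa*+/- hearts, against 3.4 and 3.54, and 4.26 and 4.15 CPM in WT hearts. cxcr1 (ENSDARG00000052088), a Cxcl8 receptor, was called higher at 8 hpi, 1 dpi and 3 dpi in both genotypes. Its calls at 1 dpi in WT and at 3 dpi in *thraa*+/- were not made with each library left out in turn.

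The atypical receptors split into genes high in uninjured tissue and genes low there. ACKR3 (ENSDARG00000058179), which binds and clears Cxcl12, was at 49.4 and 43.0 CPM in uninjured *thraa*+/- hearts and at 91.8 and 83.2 CPM in uninjured WT hearts. After resection it was at 37.8 to 65.7 CPM in *thraa*+/- libraries and was called at no time. In WT libraries it was at 31.9 to 51.7 CPM and was called lower at 8 hpi, 1, 3 and 15 dpi, with log2 fold changes of -1.11, -1.35, -1.40 and -1.08 (SE 0.09 each). These 4 calls in WT were lost with scaling by total counts, at -0.59, -0.76, -0.59 and -0.57. ACKR4 (ENSDARG00000078729), which in mammals clears CCL19, CCL21 and CCL25, was called higher from 8 hpi on in *thraa*+/- and from 1 dpi on in WT. It reached 5.16 and 4.41 CPM at 7 dpi in *thraa*+/- and 6.36 and 5.07 CPM in WT. At 8 hpi it already had 1.60 and 1.13 CPM in WT (0.60 and 0.728 uninjured), against 1.47 and 1.62 CPM in *thraa*+/-. No comparison of the genotypes was called for it. The other ACKR4 (ENSDARG00000040133) was at 34.6 and 35.1 CPM uninjured and 46.6 and 49.0 CPM at 15 dpi in *thraa*+/-, where it was called at no time. In WT it had 41.4 and 41.3 CPM uninjured and 39.0 and 37.7 CPM at 15 dpi. Its lower call in WT at 8 hpi (18.3 and 17.1 CPM) was lost with scaling by total counts (log2 fold change -0.70).

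The time of the highest group mean was compared between the genotypes as a description, for the 41 members with at least 1 CPM at that time in both. It was earlier in *thraa*+/- for 17 members, the same for 16 and later for 8. Such counts were not made for all genes, so neither these nor those below are shown to be particular to the members. The highest and next highest groups overlapped for some members, among them ccr8.1 and CCR9 (ENSDARG00000055186) in both genotypes. The time can also differ on the TPM scale. ACKR4 (ENSDARG00000040133) in WT, highest without injury by CPM, had 7.57 and 7.53 TPM uninjured and 10.19 and 10.9 TPM at 7 dpi. In WT 17 members were highest at 3 dpi, and 11 of these were highest at 8 hpi or 1 dpi in *thraa*+/-. They were cxcl8a, cxcl8b.1, cxcl11.1, ccl34a.3, ccl34a.4, ccl34b.8, ccl34b.9, ccr12b.1, ccr12b.2, cxcr3.3 and cxcr1 (ENSDARG00000052088). For 3 of the 11 the libraries do not separate the 2 periods: those of cxcl8a and cxcr1 at 3 dpi in WT overlapped WT libraries of 8 hpi or 1 dpi, and those of cxcr3.3 at 8 hpi in *thraa*+/- overlapped those at 3 dpi. Among those later in *thraa*+/- were cxcl11.3 and cxcl11.4 (7 dpi against 3 dpi in WT) and ACKR3 (ENSDARG00000058179) and cxcl12b, which in WT were highest without injury by CPM. For cxcl12b the uninjured WT libraries overlapped those at 15 dpi. On the TPM scale cxcl12b in WT had 22.75 and 22.89 uninjured and 29.34 and 31.86 at 3 dpi. ACKR3 (ENSDARG00000058179) in WT had 33.59 and 30.53 TPM uninjured, which overlapped 30.57 and 32.04 TPM at 7 dpi. In a direct test of late against early levels, 17 members were higher and 14 lower at 7 dpi than at 8 hpi in *thraa*+/- (28.2% of all genes called), and 29 were higher and 10 lower in WT (31.9%). With scaling by total counts the *thraa*+/- split was 23 and 12.

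The second question was how the genotypes differed at each time. Before injury 7 members were called, 1 higher and 6 lower in *thraa*+/- than in WT (11.5% of all genes called, 5.68% higher and 5.79% lower). cxcl12b had 45.4 and 46.8 CPM in *thraa*+/- hearts and 94.2 and 94.9 CPM in WT hearts (log2 fold change -1.04 ± 0.09, SE, edgeR adjusted p = 1.94e-12). cxcl18b had 15.6 and 12.8 CPM, against 41.6 and 39.7 CPM in WT (-1.52 ± 0.13, adjusted p = 2.78e-11). ccl34a.4 had 0.305 and 1.48 CPM, against 6.70 and 6.45 CPM (-2.86 ± 0.42, adjusted p = 2.31e-05). The higher member, ccl33.3, had 3.77 and 4.35 CPM in *thraa*+/- hearts and 0.50 and 0.208 CPM in WT hearts. The groups did not overlap for any of the 4.

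The remaining 3 calls before injury each rested on 1 or 2 libraries. cxcr3.2 had 4.38 and 3.85 CPM in *thraa*+/- hearts and 11.5 and 6.97 CPM in WT hearts, and its log2 fold change of -1.17 became -0.82 without WT uninjured replicate 1. ccl20b, at 4.48 and 2.08 CPM against 7.4 and 9.15 CPM in WT, had -1.34, and -0.94 without *thraa*+/- uninjured replicate 2. ccr11.1 was at the limit of detection in *thraa*+/- hearts and at 1.60 and 0.416 CPM in WT hearts, and its adjusted p was 0.386 without WT uninjured replicate 1 and 0.222 without *thraa*+/- uninjured replicate 2. Macrophage markers summed to 241 to 245 CPM in *thraa*+/- hearts and 419 to 420.5 CPM in WT hearts, with 4 of 12 tested called lower and 5 and 2 of its 15 identifiers at 0. Epicardial markers summed to 75.5 to 81.0 CPM in *thraa*+/- and 249 to 253 CPM in WT, with 2 of 4 lower and none at 0. Neutrophil markers summed to 8.35 to 10.7 CPM in *thraa*+/- and 22.8 to 23.4 CPM in WT (2 of 4 lower, none at 0), and skin markers to 142 to 162 CPM in *thraa*+/- and 496 to 514 CPM in WT (1 of 5 lower, 1 at 0 in each genotype). Liver markers, nearly all tfa, summed to 25.5 to 26.5 CPM in *thraa*+/- and 270 to 277 CPM in WT, and 1 of 2 tested was called lower at each of the 6 times. Their part in these calls was not tested. In bulk tissue, fewer cells of a type and less RNA per cell cannot be told apart.

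At 8 hpi 14 of the 57 members tested were higher and 2 lower in *thraa*+/- than in WT, where 10.5% of all genes were called (6.88% higher and 3.67% lower). Called were 6 of 22 CC ligands and 6 of 10 CC receptors, all higher, with 1 CXC ligand and 1 CXC receptor higher and 1 of each lower. The median log2 fold change of the members was 0.73, and that of all genes 0.00. With members at the limit of detection put at their bound or ratio, and 7 with no such value left out, it was 0.71.

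Among the calls at 8 hpi were some of the ccl34, ccr12 and CXCR3-type genes. ccl34b.8 was at 11.4 and 13.2 CPM in *thraa*+/- and at 0.835 and 1.70 CPM in WT (log2 fold change 3.27 ± 0.26, SE, edgeR adjusted p = 5.14e-14), and ccl34a.3 had 2.43 ± 0.30 (adjusted p = 9.73e-09). ccr12b.2 was at 18.7 and 20.0 CPM, against 5.08 and 4.10 CPM in WT (2.07 ± 0.20, adjusted p = 3.8e-11). ccr12a, at 11 and 6.70 CPM against 3.48 and 3.04 CPM, had 1.45 ± 0.25 (adjusted p = 1.26e-05), and ccr12b.1 had 1.94 ± 0.35. Receptors of the CXCR3 type went opposite ways: cxcr3.2 was higher, at 28.8 and 30.6 CPM against 8.56 and 9.48 CPM (1.72 ± 0.13, adjusted p = 4.08e-14), and CXCR3 was lower, at 2.88 and 1.91 CPM against 19.8 and 18.3 CPM (-2.98 ± 0.29, adjusted p = 3.4e-11). ccl35.1 (1.76 ± 0.32) and ccl36.1 (1.72 ± 0.33) were also higher.

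These 9 of the 16 calls at 8 hpi were made with each library left out. ccl34a.4, at 157 and 205 CPM against 74.0 and 83.8 CPM in WT, had 1.2 ± 0.12 (adjusted p = 2.61e-07), just under the cutoff (1.00, adjusted p = 3.33e-12) without *thraa*+/- replicate 2. CCR9 (ENSDARG00000055186) had 1.08, and 0.90 without WT replicate 1. CXCL14 was lower in *thraa*+/-, at 6.23 and 6.99 CPM against 12.5 and 14.0 CPM, with a log2 fold change of -1.0, and -0.92 without WT replicate 2 or *thraa*+/- replicate 1. CCR8 (adjusted p = 0.458 without WT replicate 1, 0.15 without *thraa*+/- replicate 1), ccr2 (0.13 without WT replicate 2), ccl34b.1 (0.187 without WT replicate 2, 0.105 without *thraa*+/- replicate 2) and cxcl11.3 (0.0556 without *thraa*+/- replicate 1) were called higher with all 4 libraries and lost their calls in the fits named.

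Neutrophil, macrophage and natural killer markers were also higher at 8 hpi. The neutrophil list (lyz, npsn, mmp13a and MMP9, with mpx and cpa5 unmatched) summed to 450.0 to 517 CPM in *thraa*+/- and 110.3 to 118 CPM in WT. All 4 of its genes were called higher, and none was at 0. The macrophage list summed to 398 to 482 CPM in *thraa*+/- and 174 to 188 CPM in WT, with 7 of 12 tested identifiers higher, and 2 and 4 of its 15 identifiers, all copies of MFAP4 or MPEG1, at 0. The single natural killer marker, nkl.2, was at 6.16 and 12.4 CPM in *thraa*+/- and at 0.348 and 0.212 CPM in WT. The T-cell list, at 2.88 to 3.61 CPM in *thraa*+/- and 2.76 to 3.27 CPM in WT, and the B-cell list, at 3.28 to 4.56 CPM in *thraa*+/- and 4.10 to 4.17 CPM in WT, overlapped between the genotypes, with 0 of 4 and 0 of 3 called. General leukocyte markers (ptprc, CORO1A, laptm5 and LCP1) summed to 592 to 678 CPM in *thraa*+/- and 188 to 201 CPM in WT. Skin markers were lower in *thraa*+/- at this time, at 1195 to 1326 CPM against 1833 to 1901 CPM in WT. How much of the difference in chemokine genes goes with any of these cells was not tested.

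**Figure D4:**
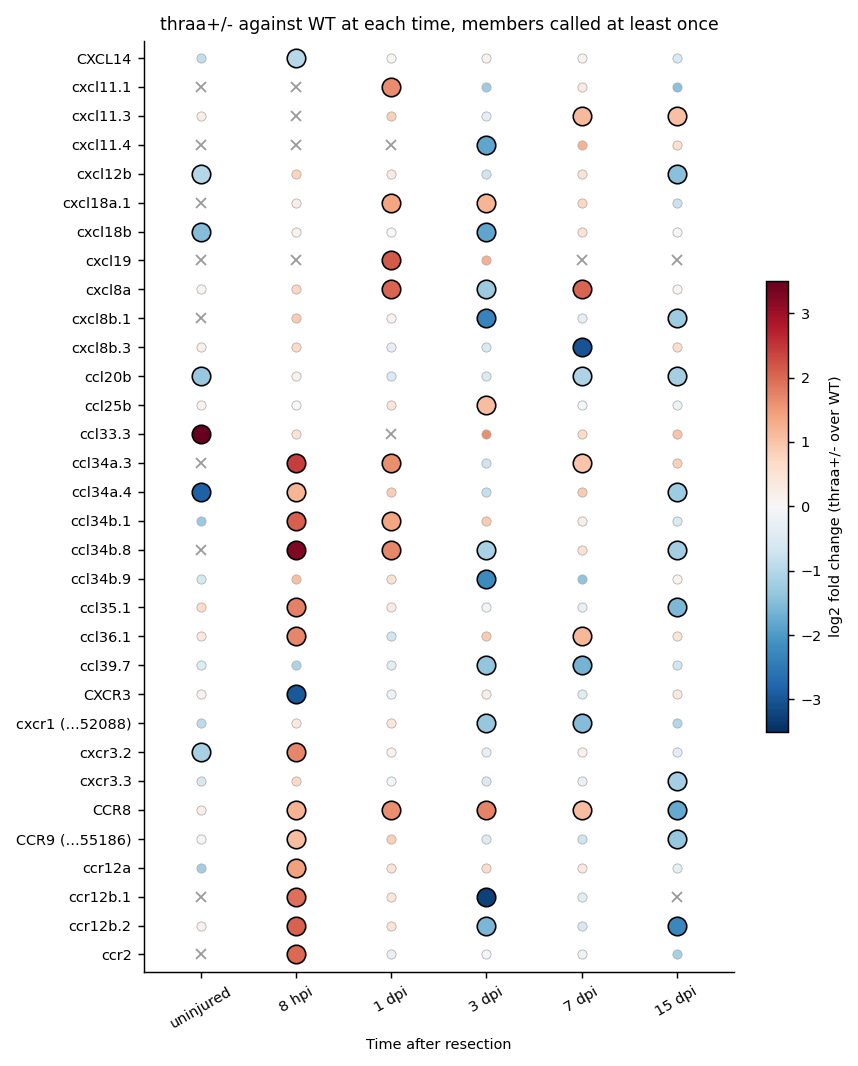
Log2 fold change of *thraa*+/- over WT at each of 6 times (columns) for the 32 members called at least once with a group at 1 CPM or more (down the page). Large ringed points are called, small points are not, and crosses mark comparisons with a group at the limit of detection, which have no fold; the colours turn over between 1 and 3 dpi for ccl34b.8, ccr12b.2 and cxcl8a.

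At 1 dpi 9 members were higher and 3 lower in *thraa*+/- (7.59% of all genes called, 4.90% higher and 2.69% lower). cxcl8a was at 15.2 and 15.3 CPM in *thraa*+/- and at 3.46 and 3.94 CPM in WT (log2 fold change 2.04 ± 0.22, SE, edgeR adjusted p = 1.04e-09). ccl34b.8 had 1.71 ± 0.18 (adjusted p = 6.76e-10), ccl34a.3 had 1.63 ± 0.25 (adjusted p = 1.7e-06) and CCR8, at 5.18 and 6.75 CPM against 1.89 and 1.97 CPM, had 1.62 ± 0.29 (adjusted p = 2.55e-05). These 4 calls were made with each library left out, and the other 8 were lost in at least 1 such fit. The count of calls was 6 without WT replicate 2 and 7 without either *thraa*+/- library. cxcl18a.1, at 5.66 and 5.19 CPM against 2.22 and 1.91 CPM, had 1.39 ± 0.36 (adjusted p = 0.00322, and 0.0556 without WT replicate 2). The groups did not overlap for cxcl19 (2.14 and 1.5 CPM against 0.588 and 0.232) and cxcl11.1 (3.10 and 2.63 CPM against 1.24 and 0.580), but without WT replicate 2 their adjusted p was 0.223 and 0.235. ccl27a, whose mammalian homologue draws T cells to the skin, had 0.908 and 1.06 CPM in *thraa*+/- and 0.196 and 0 CPM in WT. Of the 3 members called lower, ccl39.1 and ccl39.5, at 0 in *thraa*+/-, were at least 2.23-fold and 1.44-fold lower, and ccl39.2 had a count ratio of 0.128 (95% interval 0.0245 to 0.426).

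At 3 dpi ccr12b.1, ccr12b.2, ccl34b.8 and cxcl8a, called higher in *thraa*+/- at 8 hpi or 1 dpi, were lower there than in WT. In all, 5 members were higher and 10 lower in *thraa*+/- (8.57% of all genes called, 5.23% higher and 3.34% lower). cxcl18b was at 37.0 and 37.0 CPM in *thraa*+/- and at 136 and 131 CPM in WT (log2 fold change -1.85 ± 0.10, SE, edgeR adjusted p = 1.35e-16). cxcl8b.1 was at 3.45 and 3.99 CPM, against 21.2 and 16.5 CPM (-2.34 ± 0.19, adjusted p = 1.65e-13), and cxcl8a at 2.57 and 3.83 CPM, against 7.52 and 8.36 CPM (-1.31 ± 0.23, adjusted p = 1.69e-05). ccr12b.1 had -3.27 ± 0.38 (adjusted p = 2.83e-08), ccr12b.2 had -1.61 ± 0.17 (adjusted p = 5.03e-10) and ccl34b.9, at 0.978 and 1.16 CPM against 5.49 and 4.47 CPM, had -2.22 ± 0.42 (adjusted p = 6.28e-05). In none of the 6 did the groups overlap. ccl34b.8, higher in *thraa*+/- at 8 hpi and 1 dpi, was lower here at -1.14 (-0.99 without *thraa*+/- replicate 2), and cxcr1 (ENSDARG00000052088) was lower at -1.34 (-0.99, adjusted p = 0.111, without *thraa*+/- replicate 1).

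Of the members higher in *thraa*+/- at 3 dpi, ccl25b was at 34.6 and 34.9 CPM, against 16.2 and 16.6 CPM in WT (1.08 ± 0.11, adjusted p = 1.22e-10 with edgeR), and CCR8 at 3.86 and 4.57 CPM, against 0.853 and 1.65 CPM (1.74 ± 0.31, adjusted p = 1.76e-05). ccl27a had 1.44 and 1.68 CPM in *thraa*+/- and 0 in both WT libraries, at least 9.77-fold higher. cxcl18a.1 and ccl25a, called higher, and ccl39.7 and cxcl11.4, called lower, were lost without at least 2 single libraries each (adjusted p = 0.0551 to 0.115 for cxcl18a.1, 0.0895 to 0.34 for ccl25a, 0.258 to 0.502 for ccl39.7 and 0.0556 to 0.313 for cxcl11.4). Neutrophil markers summed to 70.0 to 72.0 CPM in *thraa*+/- and 133 to 138 CPM in WT at this time, with 2 of 4 lower, and skin epithelium markers to 3852 to 3954 and 464 CPM, with 4 of 5 higher. Skin markers were also higher in *thraa*+/- at 1 dpi, at 4095 to 4148 and 1274 to 1297 CPM, with 3 of 5 higher. Their part in the calls at 1 and 3 dpi was not tested.

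At 7 dpi 5 members were higher and 6 lower in *thraa*+/- (6.25% of all genes called, 2.94% higher and 3.31% lower). cxcl8a was again higher, at 6.13 and 6.27 CPM against 1.84 and 1.17 CPM in WT (log2 fold change 2.03 ± 0.26, SE, edgeR adjusted p = 7.59e-08), as was ccl36.1, at 9.05 and 9.33 CPM against 4.26 and 3.97 CPM (1.16 ± 0.24, adjusted p = 0.000299). cxcl8b.3, of the same ligand type as cxcl8a, was lower, at 0.715 and 0.777 CPM against 7.15 and 5.01 CPM (-3.02 ± 0.41, adjusted p = 2.04e-07). CXCR5, the receptor that guides B cells in mammals, was at 0.0511 and 0.104 CPM in *thraa*+/- and at 2.26 and 2.57 CPM in WT, a count ratio of 0.0321 (95% interval 0.00649 to 0.0969). These 4 calls were made with each library left out. B-cell markers summed to 18.3 to 19.2 CPM in *thraa*+/- and 79.2 to 81.0 CPM in WT at this time, with all 3 tested lower and none at 0 in both libraries of a group, and their part in the CXCR5 call was not tested. T-cell markers went the other way, at 14.5 to 15.7 CPM in *thraa*+/- and 7.58 to 7.68 CPM in WT, and their part in the calls was not tested.

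Other calls at 7 dpi depended on single libraries, and 7 were left without *thraa*+/- replicate 1. cxcl11.3 was at 11.5 and 14.1 CPM against 5.42 and 6.30 CPM (1.13, and 0.98 without *thraa*+/- replicate 2), and CCR8 had 1.07 (0.96 without *thraa*+/- replicate 2). ccl20b was at 4.60 and 5.70 CPM against 10.6 and 11.4 CPM (-1.09, and -0.95 without *thraa*+/- replicate 1), and ccl34a.3 had 1.01 (0.86 without WT replicate 1). cxcr1 (ENSDARG00000052088) was lower at -1.52 (adjusted p = 0.0707 to 0.13 without 1 of 3 libraries) and ccl39.7 at -1.67 (adjusted p = 0.189 without WT replicate 1). The adjusted p of ccr11.1 was 0.105 without WT replicate 2.

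At 15 dpi 2 of the 57 members tested were higher and 10 lower in *thraa*+/- (7.85% of all genes called, 4.12% higher and 3.74% lower). The median log2 fold change of the members was -0.69 (-0.68 with members at the limit of detection put at their bound or ratio and 3 left out), against 0.01 for all genes. cxcl12b was at 32.7 and 31.3 CPM in *thraa*+/- and at 80.6 and 94.6 CPM in WT (-1.45 ± 0.09, SE, edgeR adjusted p = 4.55e-17). CCR9 (ENSDARG00000055186) was at 10.2 and 12.4 CPM, against 28.2 and 29.3 CPM (-1.36 ± 0.12, adjusted p = 3.74e-12), and ccr12b.2 at 1.77 and 1.73 CPM, against 8.93 and 8.21 CPM (-2.28 ± 0.25, adjusted p = 1.58e-09). CCR8, called higher in *thraa*+/- at 1, 3 and 7 dpi, was now lower, at 2.48 and 3.39 CPM against 10.0 and 10.2 CPM (-1.80 ± 0.27, adjusted p = 1.06e-06).

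ccl35.1 (-1.57 ± 0.21), ccl34a.4 (-1.28 ± 0.20) and ccl20b (-1.18 ± 0.23) were also lower at 15 dpi, and these 7 calls were made with each library left out. The lower calls of cxcr3.3 (-1.2, and -0.84 without WT replicate 1), ccl34b.8 (-1.2, and -0.90 without *thraa*+/- replicate 1) and cxcl8b.1 (-1.27, and -0.87 without *thraa*+/- replicate 1) were not. The 2 members called higher were cxcl11.3 (1.06, and 0.87 without WT replicate 1) and cxcl11.5, whose count ratio was 23.3 (95% interval 3.74 to 963, adjusted p = 0.077 without WT replicate 2). Macrophage markers summed to 586 to 595 CPM in *thraa*+/- and 704 to 707 CPM in WT at 15 dpi, with 2 of 12 lower, and neutrophil markers to 30.1 to 31.5 and 54.8 to 63.0 CPM, with 2 of 4 lower. B-cell markers summed to 7.96 to 8.02 CPM in *thraa*+/- and 25.6 to 25.9 CPM in WT (1 of 3 lower), and liver markers to 154 to 158 CPM in *thraa*+/- and 477 to 479 CPM in WT. Their part was not tested.

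In all, 40 of the 57 members tested were called in at least 1 comparison of the genotypes and 17 in none, where 30.4% of all genes were called in at least 1. Whether the response to injury itself differed was tested as an interaction, which compares each time with the uninjured apex of its own genotype, so that the uninjured levels enter every such value. The difference is the log2 response of *thraa*+/- less that of WT, so a positive value can also mean a smaller fall in *thraa*+/-. At 8 hpi it was called positive for 13 members and negative for 1 (14.1% of all genes called). The same counts were 10 positive and 1 negative for 1 dpi (10.9%) and 6 and 0 for 3 dpi (8.74%). They were 8 and 3 for 7 dpi (12.7%) and 3 and 5 for 15 dpi (9.23%). For ccl34a.4 the difference was 4.05 ± 0.42 at 8 hpi (SE, edgeR adjusted p = 3.33e-07), with a lower level in *thraa*+/- before injury and a higher one after it. For cxcl18b it was 1.67 ± 0.16 at 8 hpi, where the 2 genotypes had overlapping levels. For ACKR3 (ENSDARG00000058179) it was 1.34 ± 0.13 at 1 dpi, where the gene was called lower in WT and was not called in *thraa*+/-.

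**Figure D5:**
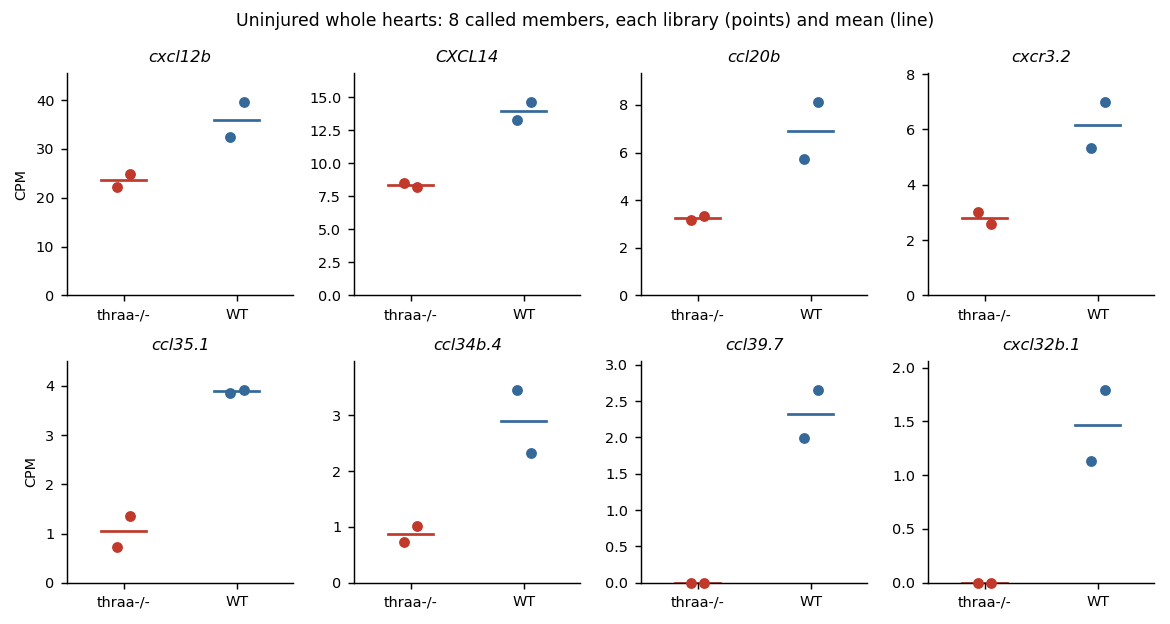
CPM in each of the 4 libraries of uninjured whole hearts, *thraa*-/- left and WT right, for the 8 members called (one panel each, linear axis from 0). Points are single libraries and short lines their means, and the *thraa*-/- points lie below the WT points in all 8 panels.

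Genes that carry the chemokine signal inside the cell were taken as a list of 35 tested genes: G proteins and arrestins, the PI3K, Rac and actin genes that move the cell, kinases, and NF-kB genes, on which many chemokine genes depend in mammals. Against uninjured apex, 16 were higher and 0 lower in *thraa*+/- at 8 hpi, 12 and 1 (1 dpi), 15 and 1 (3 dpi), 22 and 1 (7 dpi) and 7 and 1 (15 dpi), where 17.5%, 16.8%, 19.2%, 22.4% and 7.88% of all genes were higher. In WT 8, 12, 14, 18 and 4 were higher (16.5%, 14.8%, 20.8%, 24.2% and 11.3% of all genes), and 1 was lower, at 1 dpi. Between the genotypes, 9 were higher and 0 lower in *thraa*+/- at 8 hpi (6.88% and 3.67% of all genes, median log2 fold change 0.44, all genes 0.00), and 5 of these 9 were among the 11 PI3K, Rac and actin genes. They included rac2, the GTPase of leukocyte migration (1.46 ± 0.09, SE, edgeR adjusted p = 2.5e-17), and the Src-family kinase LYN (2.29 ± 0.20, adjusted p = 1.15e-12). At the other times after injury 0 to 2 were called in each direction (2.69% to 5.23% of all genes), and at 15 dpi rac2 (-1.28 ± 0.10) was among those lower in *thraa*+/-. Before injury 2 were higher and 3 lower (5.68% and 5.79% of all genes).

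Of the 77 members, 56 matched a gene of the same symbol in the RefSeq annotation of another assembly (GRCz12tu), which was used only for the order of genes. There 34 of them stood within 5 genes of another member, in 11 groups. The neighbours ccl34a.3 and ccl34a.4, and likewise ccr12b.1 and ccr12b.2, were highest at 3 dpi and next highest at 1 dpi in WT. In the group of cxcl19, cxcl8b.3 and cxcl8b.1, the time of the highest level in WT was 3 dpi for cxcl8b.1 and 7 dpi for cxcl8b.3. In the group of ccl33.3, 5 further CC ligands and ccl35.1, levels reached 26.9 CPM for ccl35.1 and stayed at or below 4.35 CPM for ccl33.3. Reads of close copies can be shared out between them, and 5.15% to 7.24% of the expected counts of a time-course library were not whole numbers. By gene, counts were not whole in 45.8% of the time-course libraries for cxcl11.6 and for cxcl11.7 and in 16.7% for ccl35.1. For ccr12b.1, ccr12b.2 and ccr2 the share was 8.33% each.

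The third question was whether uninjured hearts of homozygous mutants differed. Of the 25 members tested, 0 were higher and 8 lower in *thraa*-/- than in WT, where 19.2% of all genes were called (9.66% higher and 9.54% lower), with an adjusted p under 0.05 and a change of at least 1.5-fold as the cutoffs. The median log2 fold change was -0.61 for the members and -0.02 for all genes. With edgeR, 13 members had an unadjusted p under 0.05, a share that was not counted over all genes. cxcl12b was at 22.3 and 24.8 CPM in *thraa*-/- hearts and at 32.5 and 39.6 CPM in WT hearts (-0.61 ± 0.14, SE, edgeR adjusted p = 0.0156). CXCL14 was at 8.55 and 8.18 CPM, against 13.3 and 14.6 CPM (-0.74 ± 0.17, adjusted p = 0.0143). cxcr3.2 was at 3.02 and 2.59 CPM, against 5.32 and 6.98 CPM (-1.13 ± 0.26, adjusted p = 0.0153). The groups did not overlap for these 3. In the uninjured apex of the time course, cxcl12b, cxcr3.2 and ccl20b were also called lower in *thraa*+/-. CXCL14, at 5.80 and 7.31 CPM against 11 and 13.0 CPM in WT, was not called there. The cutoff there was a log2 fold change of 1, stricter than 1.5-fold. Also not called there were ccl34b.4, ccl35.1, ccl39.7 and cxcl32b.1, which were lower in whole hearts. ccl34b.4 went the other way in the apex, at 1.73 and 1.97 TPM in *thraa*+/- and 1.18 and 0.85 TPM in WT. For ccl35.1 the apex libraries overlapped. The apex calls of cxcr3.2 and ccl20b were each lost without a single library. Other members called in the apex were not called in whole hearts. The log2 fold changes there were -0.22 for ccl33.3, which was higher in *thraa*+/- apex, -0.53 for cxcl18b and -2.17 for ccl34a.4, and ccr11.1 was not tested.

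Among the CC ligands of whole hearts, ccl20b was at 3.16 and 3.34 CPM in *thraa*-/- and at 5.72 and 8.11 CPM in WT (-1.09 ± 0.26, adjusted p = 0.0169 with edgeR), ccl35.1 at 0.723 and 1.36 CPM, against 3.86 and 3.92 CPM (-1.89 ± 0.38, adjusted p = 0.0079), and ccl34b.4 at 0.723 and 1.02 CPM, against 3.46 and 2.33 CPM (-1.72 ± 0.42, adjusted p = 0.0184). ccl39.7 was at 0 in both *thraa*-/- libraries and at 2.00 and 2.66 CPM in WT, at least 11.6-fold lower (adjusted p = 0.00117). cxcl32b.1 was at 0 in *thraa*-/- and at 1.13 and 1.80 CPM in WT, at least 7.28-fold lower (adjusted p = 0.00341). The groups did not overlap for 17 of the 25 members, but the share of all genes without overlap was not counted. This count is therefore not shown to be particular to the members.

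The calls in whole hearts rest on few libraries. Without *thraa*-/- replicate 1 a single member, ccl39.7, was called, and without replicate 2 there were 2, while all 8 log2 fold changes stayed below 0. Without WT replicate 2, cxcl12b (-0.47) and ccl20b (-0.82, adjusted p = 0.0585) were lost. *thraa* was at 13.3 and 9.75 CPM in *thraa*-/- libraries and at 6.58 and 5.32 CPM in WT libraries. Of the leukocyte marker list 20 genes were tested, with 0 higher and 7 lower in *thraa*-/-. The macrophage list summed to 149 to 167 CPM in *thraa*-/- and 356 to 377 CPM in WT, with 3 of 8 tested lower and 4 and 2 of 15 identifiers, all copies of MFAP4 or MPEG1, at 0. Most of both sums was cd74a, at 95.7 and 102 CPM in *thraa*-/- and 281 and 262 CPM in WT. The libraries overlapped for csf1ra and marco, and copies of MPEG1 went both ways. The B-cell list summed to 0.0682 to 0.263 CPM in *thraa*-/- and 3.13 to 4.99 CPM in WT, with cd79b and PAX5 at 0 in both *thraa*-/- libraries and PAX5 at 0 in both WT libraries. Liver markers, nearly all tfa, summed to 9.07 to 10.8 CPM in *thraa*-/- and 52.8 to 123 CPM in WT. The part of these cells in the 8 calls was not tested. Of the signalling list, 2 of 35 were higher and 6 lower.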

How the data were processed

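The authors trimmed paired 150-base reads with Trim Galore 0.6.10, aligned them to GRCz11 with STAR 2.7.9 and deposited expected counts and TPM per Ensembl gene from RSEM 1.3.3. The annotation release is not given in the sources used here. Expected counts are estimates that share ambiguous reads between copies, and were rounded to whole numbers.

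Here each experiment was fitted with its groups together by the quasi-likelihood test of edgeR 4.0.16 in R 4.3.3, after its filter on low counts and TMM scaling, with Benjamini-Hochberg adjustment over all 17837 (time course) or 15793 (whole hearts) genes. Calls needed an adjusted p under 0.05 and a log2 fold change of at least 1, or 1.5-fold in whole hearts. With 2 libraries a group, p-values rest on the spread shared across genes, and an exact two-sided permutation test could not go below 0.333. Each library is a pool of fish, so p-values measure the spread between pools. That spread is a single estimate per gene over all groups of an experiment. It can be too small for the most variable group of the time course, *thraa*+/- at 8 hpi (23.9 times counting), and p-values there can overstate certainty.

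Alternatives were DESeq2 1.42.0, scaling by total counts, no filter, at least 10 counts in every library, limma 3.58.1 on log2(TPM + 1), a replicate block, the compared groups alone, and each library left out. The procedure was also run on simulated counts, with a smaller fold cutoff than the calls here and the same spread for all genes and groups. That run therefore does not measure how reliable the calls here are. Of 32520 identifiers, 29201 had a symbol. Members and gene lists were chosen with earlier results of these data known. Genes named with values were the 30 members with the highest group mean and those called between genotypes. Same-numbered libraries did not deviate together (correlations of deviations -0.0328 to 0.196, median 0.00563, over 66 pairs of time-course groups). No sequences are shown. One gene of the signalling list entered the fits and the list's counts, and its own values are not reported here.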

Additional observations from a re-analysis of the deposited data

Results flagged for a closer look

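Listed here are the members whose log2 response to resection differed between *thraa*+/- and WT by the interaction test of edgeR (*thraa*+/- response minus WT response, adjusted p under 0.05, size at least 1). All values of a genotype share its 2 uninjured libraries. Where a group was at the limit of detection, the adjusted p is given in place of the difference.

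At 8 hpi the greatest differences among CC genes were 4.05 for ccl34a.4 and 3.38 for ccl34b.1, followed by 2.67 for ccr12a, 1.35 for ccl36.1 and 1.14 for CCR9 (ENSDARG00000055186). Among CXC genes cxcr3.2 had 2.89, cxcl12b 1.81, cxcl18b 1.67 and cxcr3.3 1.33, while CXCR3 responded less in *thraa*+/-, at -3.07. The adjusted p was 0.0416 for ccl38a.4, 0.0256 for ccr12b.1, 0.0284 for cxcl8b.1 and 0.0142 for cxcl11.3. Of the 14, 6 were called with each library left out: ccl34a.4, ccl34b.1, cxcr3.2, cxcl12b, cxcl18b and CCR9.

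At 1 dpi ccl34a.4 had 3.74, ccl34b.1 2.69, cxcl8a 1.96, ccr12a 1.76, cxcl18b 1.5, cxcl12b 1.35, ACKR3 (ENSDARG00000058179) 1.34 and cxcr3.2 1.32, and cxcl20 had -1.06. The adjusted p was 0.0488 for ccl38a.4 and 0.00738 for cxcl19. With each library left out, 4 of the 11 calls held (ccl34a.4, cxcl18b, cxcl12b and ACKR3).

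At 3 dpi the differences were 2.23 for ccl34b.1, 2.01 for ccl34a.4, 1.90 for ccr12a, 1.16 for ACKR3 (ENSDARG00000058179) and 1.01 for CXCL14, with an adjusted p of 0.026 for cxcl19. ACKR3 and ccl34a.4 were the 2 of 6 called with each library left out.

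At 7 dpi ccl34a.4 had 3.78, cxcl18b 2.05, cxcl8a 1.95, ccr12a 1.60, cxcl12b 1.5, cxcr3.2 1.35, ACKR3 (ENSDARG00000058179) 1.23 and CXCL14 1.02. The difference was -3.22 for cxcl8b.3 and -2.79 for ccl33.3, and the adjusted p of CXCR5 was 0.0249. Of the 11, 5 held with each library left out (ccl34a.4, cxcl18b, cxcl12b, ACKR3 and cxcl8b.3).

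At 15 dpi ccl34a.4 and cxcl18b had 1.57 each and ACKR3 (ENSDARG00000058179) 1.24. The difference was -2.49 for ccl33.3, -2.43 for ccr12b.2, -2.25 for ccl35.1, -2.01 for CCR8 and -1.30 for CCR9 (ENSDARG00000055186). The calls of CCR9, ACKR3, cxcl18b, CCR8 and ccl35.1 held with each library left out, 5 of 8.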

How the results depend on the processing

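Of 477 calls of single members, 458 held with DESeq2, 449 with scaling by total counts, 462 without the filter, 353 with limma on log2(TPM + 1) and 473 with a replicate block, and 441 of 469 with the compared groups alone; the others fell short of the cutoffs, and the cause was not tested. The block changed no other call, but same-numbered libraries share only a number. With at least 10 counts in every library 13 members were tested, which by construction lowers the counts called after injury to 4, 7, 5, 7 and 3 in *thraa*+/- (8 hpi to 15 dpi) and 4, 7, 8, 6 and 6 in WT, between genotypes to 3, 4, 0, 2, 2 and 4 (uninjured to 15 dpi), for the difference in response to 6, 5, 2, 5 and 4, and for 7 dpi against 8 hpi to 6 in *thraa*+/- and 8 in WT. Scaling by total counts, which moved the median of all genes by 0.413 to 0.895 (log2) after injury, by -0.0973 to 0.0386 between genotypes and by -0.254 in whole hearts, gave 20 calls in *thraa*+/- at 15 dpi. limma gave 4, 9 and 7 calls between genotypes (uninjured, 3 and 15 dpi) and 13 in whole hearts. For the difference at 3 dpi it gave 10 (4 positive and 6 negative). With single libraries left out, calls numbered 6 to 11 between genotypes at 1 dpi, 7 to 11 at 7 dpi and 1 to 11 in whole hearts. Of 2108 such refits of single calls, 1779 held and 3 turned: ccl39.1 at 1 dpi in *thraa*+/- (-6.23 to 0 over its refits; 0 without uninjured *thraa*+/- replicate 2), ccr12b.1 in the difference at 8 hpi (-2.39 to 4.48; -2.39 without uninjured WT replicate 1) and ccr12b.2 in the difference at 15 dpi (-3.36 to 3.45; 3.45 without uninjured *thraa*+/- replicate 2). Members under 1 CPM rest on few counts, and differences between them that were not called may lie below what this depth can detect.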
